A study of Mus musculus with 8 samples.

Results

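Among the sorted midbrain nuclei, 161 stood out by a shared set of genes, Ebf2, Adam12, Htr2c, Grm3, Man1a and Fam19a2, and these are the nuclei described here. They were taken from 4045 gated nuclei, out of 5740 deposited. The gate asked for at least 5000 unique molecular identifiers (UMIs, each the tag of 1 captured transcript) per nucleus and at least 5 UMIs per 10000 of Th, Slc6a3, Slc18a2 and Ddc together, the genes that make, store and take up dopamine. Each of the 6 genes was scaled across the gated nuclei as a z-score of its log level, the 6 z-scores were averaged, and the top 4% by that score were kept as members. The remaining 3884 gated nuclei are called the other gated nuclei.

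The tested library came from mice labelled PRC2 mutant and the library it is set against from mice labelled wt, both of the strain DatCreEed and aged 8 months. The strain name joins the dopamine transporter (Dat, encoded by Slc6a3) Cre driver with Eed, so recombination is tied to cells that make the transporter; the labels do not say which part of Eed is deleted or whether wt mice carry Cre. Each library pooled nuclei of 3 mice, 2 female and 1 male, and its 4 samples are 4 sequencing lanes. There was therefore 1 library per genotype and no replicate: no test was possible, no p-value is given, and genotype cannot be told apart from the pool, the sort or the library preparation. Levels are CPM, the UMIs of a gene per 1000000 UMIs summed over a class of nuclei, and intervals are exact 95% intervals for counting error only.

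Ebf2 belongs to the early B cell factors (Ebf), transcription factors that act in neuronal differentiation and recognise a short palindromic DNA motif. Htr2c encodes a serotonin receptor that signals through Gq and is known for lowering the activity of dopamine neurons, largely by way of inhibitory neurons. Grm3 is a metabotropic glutamate receptor, Adam12 a membrane-anchored metalloprotease, Man1a a Golgi mannosidase that trims N-glycans, and Fam19a2 (now Tafa2) a secreted protein of the brain. Polycomb repressive complex 2 (PRC2), with Eed as a core subunit, methylates lysine 27 of histone H3 and keeps developmental regulators such as the Hox genes silent in differentiated cells.

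Promoters of 3 genes are shown, all higher in members and each searched for the Ebf motif. They are Htr2c and Man1a from the selecting score, and Gda, a guanine deaminase. Each stretch runs 5′ to 3′ on the gene's strand, from 250 bases before the gene's start to 30 after it, in RefSeq on build GRCm38.p6. Capitals mark CCCNNGGG, the shorter core of the motif, which reads the same on both strands. Htr2c lies at chrX:146962263-146962542 on the plus strand, Man1a at chr10:54075708-54075987 on the minus strand and Gda at chr19:21472632-21472911 on the minus strand.
Htr2c: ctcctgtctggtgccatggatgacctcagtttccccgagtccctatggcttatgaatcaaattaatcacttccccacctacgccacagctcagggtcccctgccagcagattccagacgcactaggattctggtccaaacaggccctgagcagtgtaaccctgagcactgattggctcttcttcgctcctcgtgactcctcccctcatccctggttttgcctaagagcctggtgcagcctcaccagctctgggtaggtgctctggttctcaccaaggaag
Man1a: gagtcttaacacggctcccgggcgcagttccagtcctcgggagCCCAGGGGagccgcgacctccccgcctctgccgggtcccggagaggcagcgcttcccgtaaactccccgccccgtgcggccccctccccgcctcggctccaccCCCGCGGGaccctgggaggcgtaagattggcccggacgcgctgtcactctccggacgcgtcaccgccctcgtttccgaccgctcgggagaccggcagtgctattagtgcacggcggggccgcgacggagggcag
Gda: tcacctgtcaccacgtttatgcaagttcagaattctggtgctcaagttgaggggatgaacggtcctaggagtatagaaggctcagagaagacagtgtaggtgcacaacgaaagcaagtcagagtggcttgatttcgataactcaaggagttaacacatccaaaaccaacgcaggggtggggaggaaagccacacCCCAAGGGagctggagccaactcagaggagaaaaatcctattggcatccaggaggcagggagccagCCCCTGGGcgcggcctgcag
Of the 6 selecting genes 4 had a promoter in the RefSeq table, Fam19a2 under its present symbol Tafa2, and 1 of them, Man1a, held CCCNNGGG in the window of 300 bases searched. Of the 19 matched promoters among the 25 genes that most exceeded their level in other gated nuclei, 2 held it, those of Gda and Gabrg1, and of the 12 matched among the 15 most reduced genes 3 did, those of Drd2, Hs6st3 and Lhfp. Among all 27025 genes with a listed promoter, 13.4% held it. The longer form of the motif, CCCNNGGG with a T before it and an A after it, also reads the same on both strands and was in 0.899% of all promoters and in 1 of these, Gabrg1, a GABA-A receptor subunit, at chr5:70842568-70842591 on the minus strand just inside the transcript.
Gabrg1: aagcagcattTCCCTCGGGAaccc
A match is a description of these letters and not a bound site.

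The members were 105 of 2785 gated nuclei in the mutant library, 3.77% (3.09% to 4.55%, exact Clopper-Pearson), and 56 of 1260 in the wt library, 4.44% (3.37% to 5.73%). The intervals overlap. The last 10 nuclei inside the top 4% scored 1.42 to 1.44 and the first 10 outside 1.37 to 1.41, while the highest nucleus reached 3.101, so the members are the end of a range and not a separated cluster. Of the 161 nuclei, 69 were also members when the gate was raised to 10 UMIs per 10000 and 94 when it was lowered to 2. Members were shallower: their median was 16351 UMIs in the mutant and 18270 in the wt library, against 19692 and 25428 in other gated nuclei of the same libraries. Between the libraries 4 barcodes were shared over all nuclei, 2 over gated nuclei and 0 over members.

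The selecting genes are given as a description, since their values chose the nuclei. Ebf2 (chr14:67233292-67430918, plus strand, GENCODE M21 on mm10) had 324 CPM in mutant members and 38.5 CPM in other gated nuclei of that library, and 192 CPM in wt members and 26.3 CPM in other wt nuclei. Htr2c (chrX:146962513-147197277, plus strand) had 1149 CPM in mutant members against 154 CPM in the others, and 1408 CPM in wt members against 180 CPM. Ebf2 was not in every member: 80 of 105 mutant members carried at least 1 tag of it, against 29 of 56 wt members.

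Adam12 (chr7:133883199-134232146, minus strand) was found in 75 mutant and 46 wt members, and Grm3 (chr5:9485541-9725170, minus strand) in 69 mutant and 43 wt members. Grm3 was more frequent in oligodendrocyte-rich nuclei, those outside the gate with at least 50 UMIs per 10000 of oligodendrocyte markers. Thinned to 2000 UMIs, 71.4% of 42 mutant and 82.4% of 34 wt such nuclei carried Grm3. Members carried it in 35.2% and 37.5%. Man1a (chr10:53904785-54076609, minus strand) was found in 93 mutant and 46 wt members, and Fam19a2 (chr10:123263996-123741204, plus strand) in 96 and 55. No gene of the score was thus required. All 6 were tagged in 25 mutant members (23.8%) and 13 wt members (23.2%), and in 47 (1.75%) and 25 (2.08%) of the other gated nuclei. The gene with the highest z-score was Man1a in 34 and Ebf2 in 32 of the 105 mutant members, and Man1a in 13 and Ebf2 and Grm3 in 10 each of the 56 wt members.

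**Figure D1:**
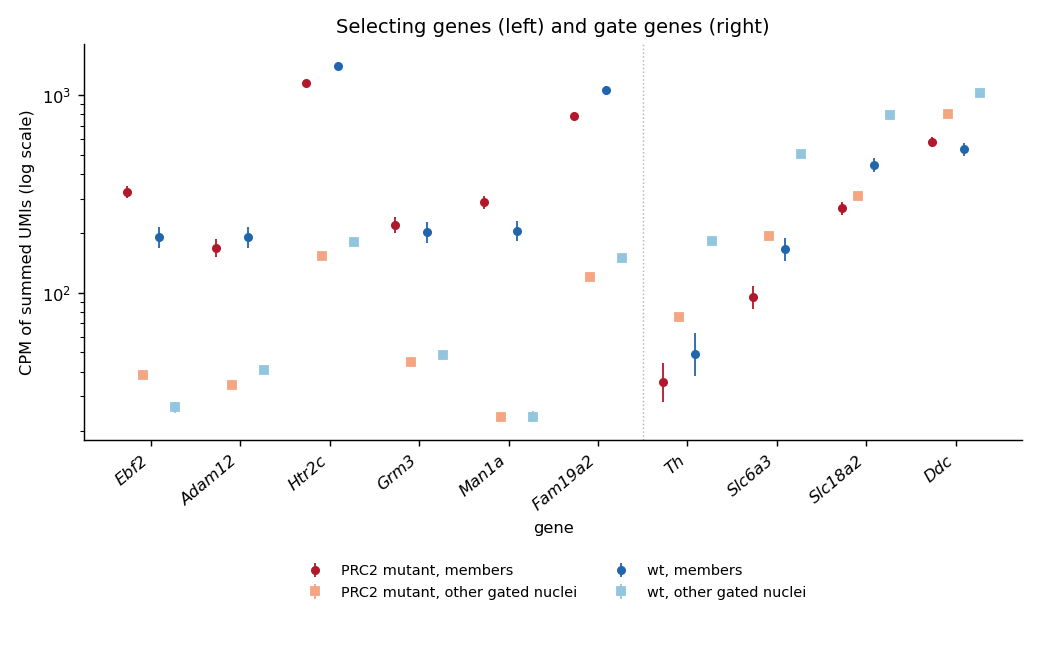
CPM of summed UMIs (log scale) of the 6 selecting genes and the 4 gate genes in mutant members, other mutant gated nuclei, wt members and other wt gated nuclei; bars are exact 95% Poisson intervals for counting error. Ebf2 stands at 324 CPM in mutant members and 192 CPM in wt members, and Th, Slc6a3, Slc18a2 and Ddc are lower in members than in the other gated nuclei of either library.

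The label calls these dopamine nuclei, and the gate genes were present but low. Th, the rate-limiting enzyme of dopamine synthesis, had 35.5 CPM in mutant members against 75.9 CPM in other mutant nuclei, and 49.2 CPM in wt members against 183 CPM in other wt nuclei. Slc6a3, the dopamine transporter, had 94.9 against 195 CPM in the mutant and 166 against 502 CPM in the wt library. Slc18a2, the vesicular monoamine transporter, had 268 against 310 CPM in the mutant and 443 against 792 CPM in the wt library, and Ddc, the decarboxylase, 581 against 801 CPM and 533 against 1022 CPM. All 4 genes were tagged in 30 mutant members (28.6%) and 17 wt members (30.4%), against 60.8% and 86.1% of other gated nuclei, and neither Th nor Slc6a3 was tagged in 33 mutant (31.4%) and 15 wt members (26.8%), against 7.35% and 2.24%.

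Nuclei of at least 5000 UMIs that failed the gate set a background for those values. Of these, 200 mutant and 66 wt nuclei scored as high as a member, and they had 7.97 and 14.2 CPM of Slc6a3, 78.7 and 107 CPM of Ddc, 62.3 and 93.7 CPM of Slc18a2 and 45.2 and 65.8 CPM of Lmx1b, a transcription factor of dopamine and serotonin neurons. Members had 113 CPM of Lmx1b in the mutant and 126 CPM in the wt library, beside 109 and 144 CPM in other gated nuclei. Bnc2, a zinc finger factor, had 440 CPM in mutant and 339 CPM in wt members, against 443 and 544 CPM in other gated nuclei and 135 and 102 CPM in the high-scoring nuclei outside the gate. Other dopamine regulators did not follow these: En1 had 13.5 CPM in mutant members against 29.8 CPM in other mutant gated nuclei, and 21.6 CPM in wt members against 76.8 CPM in other wt ones. Foxa2 had 5.40 against 7.10 CPM in the mutant and 2.98 against 9.58 CPM in the wt library, and Pitx3 4.05 against 6.37 CPM and 3.73 against 18.6 CPM. High-scoring nuclei outside the gate had 7.03 CPM of En1 in the mutant and 6.03 CPM in the wt library. Lmx1a had 156 CPM in mutant and 148 CPM in wt members, and 119 and 138 CPM in those nuclei outside the gate. The gate itself selects on Slc6a3, Slc18a2 and Ddc, and Lmx1b, Bnc2, En1, Foxa2, Pitx3 and Lmx1a were not used by it.

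Glial and vascular markers were few in a typical nucleus, with medians of 1.10 UMIs per 10000 in mutant and 1.39 in wt members. Their sum was higher in members than in other gated nuclei of either library. The 37 glial and vascular markers summed to 332 CPM in mutant members against 266 CPM in other mutant nuclei, and to 504 CPM in wt members against 309 CPM in other wt nuclei, with 5 of 37 at 0 in the members of each library. Nuclei with at least 5 UMIs per 10000 of these markers made up 14.3% of mutant and 17.9% of wt members, against 9.81% and 13.3% of the other gated nuclei. The serotonergic and noradrenergic list summed to 20.7 CPM in mutant members and 0.746 CPM in wt members, but 44 of the 46 Tph2, Slc6a4 and Fev tags in mutant members came from 1 nucleus. No doublet caller was run; leaving out the nuclei rich in glial markers is given below where it changes a value.

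Members differed from other gated nuclei in a defined set of genes, given here as a description because these nuclei were chosen on expression. Of 13787 genes with enough tags, 113 were at least 2-fold higher in members in both libraries (0.82%) and 52 at least 2-fold lower (0.377%), on the log2 scale with a pseudocount of 5 CPM, which understates the difference for genes of low level. In the mutant library alone 157 genes were higher (1.14%) and 85 lower (0.617%), and in the wt library alone 277 (2.01%) and 199 (1.44%). The higher set includes the 6 selecting genes. Over all genes the median log2 ratio of members to others was -0.02 in the mutant and 0.01 in the wt library.

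Of 49 axon guidance and adhesion genes measured, 2 were at least 2-fold higher and 3 lower in members in both libraries. Outside that list Nxph1, a secreted ligand of neurexins (chr6:8948431-9249032, plus strand), had 794 CPM in mutant members against 186 CPM in the others, 4.26-fold (4.05 to 4.48), and 1827 CPM in wt members against 272 CPM, 6.72-fold (6.42 to 7.02). It was tagged in 66 of 105 mutant and 46 of 56 wt members. Edil3, an extracellular matrix protein, had 517 CPM in mutant members against 122 CPM in the others, and 677 CPM in wt members against 139 CPM. Plxdc2, a membrane protein with a plexin domain, had 324 against 87.0 CPM and 876 against 122 CPM in the mutant and wt library. Cntn3, a contactin, Gpc3, a glypican, Pcdh11x, a protocadherin, and Brinp3 were also among the 25 most raised, as were Mgat4c, an N-glycan branching enzyme with 2085 CPM in mutant and 2404 CPM in wt members, and Ust, a sulfotransferase, whose mutant log2 ratio was -0.22 with the gate at 10 UMIs per 10000. Of the 14 N-glycan mannosidases and branching enzymes besides Man1a, Mgat4c was the 1 that reached 2-fold in both libraries.

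For transmitters, members held more Gad2, which makes GABA, and more Slc17a6, the vesicular glutamate transporter 2, than other gated nuclei. Neither was particular to high scores. Nuclei that failed the gate and scored below the members had 144 CPM of Gad2 in the mutant and 143 CPM in the wt library. Slc17a6 stood at 122 and 90.7 CPM in those nuclei. Gad2 had 162 CPM in mutant members against 70.0 CPM in other mutant nuclei, 2.32-fold (2.08 to 2.58), and 83.5 CPM in wt members against 26.4 CPM in other wt nuclei, 3.16-fold (2.58 to 3.85). Slc17a6 had 76.9 against 30.2 CPM in the mutant, 2.55-fold (2.17 to 2.98), and 78.3 against 22.7 CPM in the wt library, 3.44-fold (2.79 to 4.22). The mutant log2 ratio of Gad2 fell short of 2-fold under 5 alternatives, with a lowest value of 0.63 when Ebf2 was left out of the score. In the mutant library 38 of 105 members carried both tags, 24 Gad2 alone, 32 Slc17a6 alone and 11 neither; in the wt library 7 of 56 carried both, 10 Gad2 alone, 27 Slc17a6 alone and 12 neither. With every nucleus thinned to 2000 UMIs, Gad2 was tagged in 28.6% of mutant members (unthinned 59.0%) against 11.5% of other mutant nuclei (52.2%), and in 17.9% of wt members (30.4%) against 3.74% of other wt nuclei (15.4%). Oligodendrocyte-rich nuclei, which should lack Gad2, carried it in 2.38% of 42 mutant nuclei and in 0 of 34 wt nuclei, which allows a share of up to 8.82%, after thinning, at median depths of 3799 and 3737 UMIs. Other GABA genes did not follow Gad2. Slc32a1, the vesicular GABA transporter, had 4.95 CPM in mutant and 0.746 CPM in wt members, against 6.40 and 1.27 CPM in other gated nuclei. Gad1, which also makes GABA, had 83.6 CPM in mutant members against 100 CPM in the others. In the wt library Gad1 had 5.97 CPM in members, from 8 UMIs, against 4.12 CPM.

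Some receptor genes were higher too. Of 27 neuropeptide and hormone receptors measured, 6 were at least 2-fold higher in members in both libraries (among them Oprm1, Hcrtr2, Lepr, Calcr and Npsr1) and 1, the growth hormone receptor Ghr, was lower. Over all genes measured 0.82% were higher and 0.377% lower, the shares to set beside this count and the list counts that follow. Hcrtr2, an orexin receptor, had 69.2 CPM in mutant members against 23.9 CPM in the others, and 116 CPM in wt members against 21.8 CPM. Of 11 nicotinic and muscarinic receptors, the muscarinic Chrm2 and Chrm3 were higher and the nicotinic subunit Chrna6, typical of dopamine neurons, was lower. Chrm2 had 192 against 46.4 CPM in the mutant and 166 against 34.0 CPM in the wt library. Chrm3, which couples to Gq as Htr2c does, had 516 against 125 CPM and 476 against 160 CPM.

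Of 18 GABA-A, GABA-B and glycine receptor genes measured, Gabra2, Gabra5 and Gabrg1 were higher in both libraries and none lower; Gabrg1 had 85.4 against 19.9 CPM in the mutant, 4.30-fold (3.67 to 5.01), and 131 against 23.2 CPM in the wt library, 5.63-fold (4.76 to 6.63). Of 17 ionotropic glutamate receptors measured 2, among them Grin3a, were higher and 1, Grin2c, lower, and of 6 other metabotropic ones Grm8 was higher, with 627 against 213 CPM and 721 against 260 CPM. The remaining serotonin receptors did not reach 2-fold in both libraries (0 of 6), though Htr2a had 19.8 CPM in mutant members against 6.63 CPM in the others and 19.4 CPM in wt members against 9.50 CPM. Of 14 genes of Gq signalling and Htr2c editing none was higher and Prkca, a protein kinase C, was lower, with 742 against 1676 CPM and 606 against 1584 CPM.

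Nos1, the neuronal nitric oxide synthase, had 39.6 CPM in mutant members against 7.37 CPM in the others, 5.37-fold (4.23 to 6.75), and 72.4 CPM in wt members against 7.94 CPM, 9.11-fold (7.17 to 11.5). Gm32647, a long noncoding RNA (chr7:94042691-94709171, plus strand), had the highest mean ratio outside the selecting and gate genes: 585 against 64.1 CPM in the mutant and 774 against 134 CPM in the wt library, carried by 28 mutant and 34 wt members. Myo3b, an unconventional myosin, had 58.9 against 7.28 CPM and 67.1 against 9.15 CPM. Kcnh7, an ERG-type potassium channel, and Cacna1i, a T-type calcium channel, were the 2 of 38 pacemaking and excitability channels that were higher in both libraries, and none was lower. Further genes of the 25 were Sntg2, Gda, Palld, Gm48485, Ccdc187 and Arpp21, with mutant ratios from 1.64 to 2.14 on the log2 scale. Of the 24 of these genes reported here, 19 stayed at least 2-fold higher in both libraries under every alternative tried; Ust, Npsr1, Calcr, Gpc3 and Arpp21 fell short in the mutant library, at 0.30 for Npsr1 with the gate at 10 UMIs per 10000 and 0.79 for Calcr with a score without Fam19a2.

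Among transcription factors Ebf2 did not stand wholly alone. Ebf3 had 386 CPM in mutant members against 167 CPM in other mutant nuclei, 2.31-fold (2.15 to 2.48), and 333 CPM in wt members against 220.8 CPM, 1.51-fold (1.37 to 1.66), which is short of 2-fold in the wt library. Ebf1 had 121 against 142 CPM in the mutant and 175 against 122 CPM in the wt library, opposite directions, and Zfp521, known to bind and inhibit Ebf1, 94.0 against 155 CPM and 76.1 against 146 CPM. Among regulators of dopamine neurons Sox6 was lower, with 104 against 454 CPM in the mutant, 4.35-fold lower (3.82 to 4.97), and 196 against 441 CPM in the wt library, 2.25-fold lower (1.99 to 2.55); the wt log2 ratio of Sox6 was -0.93 to -0.96 under 4 alternatives, 1 of them without nuclei rich in glial markers. Of the 17 regulators measured, 15 did not reach 2-fold in both libraries.

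The genes lower in members include markers of substantia nigra-type dopamine neurons: of 13 measured, Sox6, Aldh1a1, Ndnf, Grin2c and Dlk1 were at least 2-fold lower in both libraries and none higher, with a median log2 ratio of -0.76 in the mutant and -1.32 in the wt library. Ndnf, a secreted neuron-derived factor, had 7.19 CPM in mutant members against 30.7 CPM in the others, and 5.97 CPM in wt members against 83.3 CPM. Of 14 ventral tegmental-type genes Slc17a6 alone was higher and none lower, and the medians were -0.16 and -0.21. Outside the gate, of 15 further dopamine genes (synthesis, storage, uptake, breakdown and autoreceptor), Aldh1a1, Drd2, Sv2c and Dlk1 were lower and none higher. Drd2, the dopamine D2 autoreceptor, had 58.0 against 234 CPM in the mutant, 4.04-fold lower (3.40 to 4.85), and 66.4 against 318 CPM in the wt library, 4.79-fold lower (3.89 to 5.97). Further genes of the 15 lowest were Kcns3, Lhfp, 0610040J01Rik, Tll1, Pappa, Ctnna1, Ntf3, Epha4, Bmpr1b and Hs6st3. Of the 15, 8 stayed at least 2-fold lower in both libraries under every alternative tried; besides Sox6, those that fell short were Tll1, Pappa and Hs6st3 in the mutant and Grin2c, Lhfp and Bmpr1b in the wt library, and Hs6st3 came nearest to 0, at -0.57 with a score without Ebf2. The total of the gate genes was lower in members too, and its part in these differences was not tested.

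**Figure D2:**
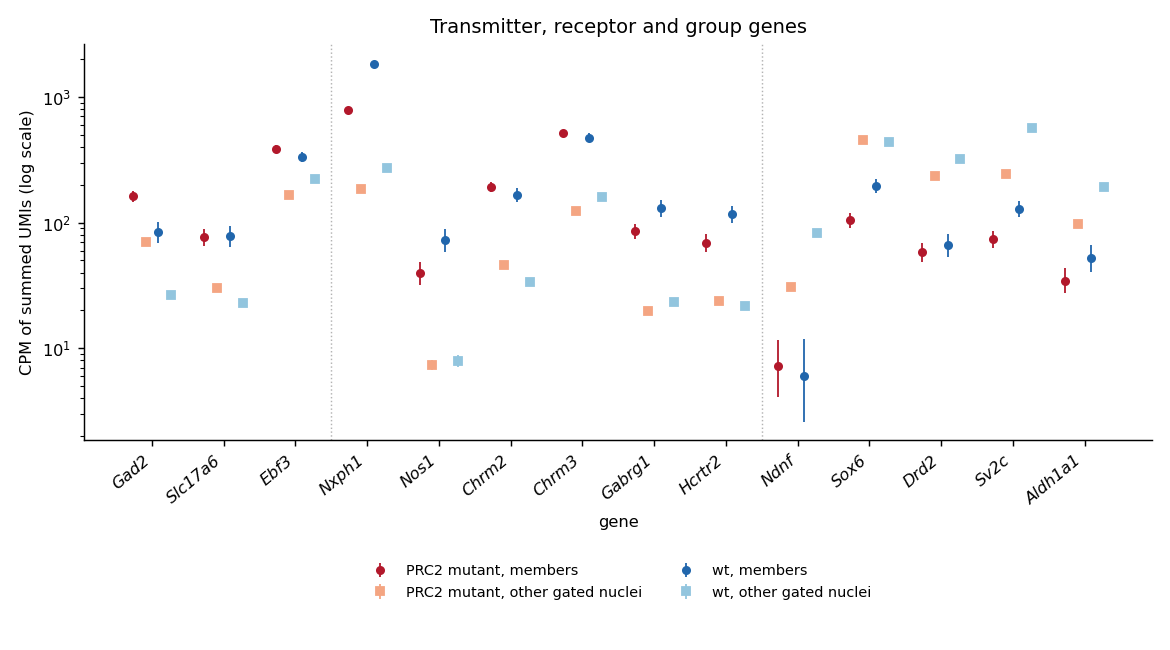
CPM of summed UMIs (log scale) of 14 genes in mutant members, other mutant gated nuclei, wt members and other wt gated nuclei; bars are exact 95% Poisson intervals. Gad2 reaches 162 CPM in mutant members and 83.5 CPM in wt members, Nxph1 794 and 1827 CPM, and the members lie below the other gated nuclei for Ndnf, Sox6, Drd2, Sv2c and Aldh1a1.

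Likeness to other dopamine groups was described by taking, in the same way, the top 4% of gated nuclei for each of 7 other gene sets. The nuclei scored on Calcr, Npsr1 and Nos1 shared 41 of 161 with the members (25.5% of each), and those scored on Sema5b and Sulf1 shared 15 (9.32%). The sets of Glra2 and Nt5e, and of Cgnl1, Etv1 and Pde11a, shared 5 and 3, and each of the remaining 3 sets shared 1. The Calcr, Npsr1 and Nos1 nuclei had 47.5 CPM of Ebf2 in the mutant and 37.2 CPM in the wt library, and Htr2c at 795 and 1010 CPM. Nxph1, with 794 and 1827 CPM in mutant and wt members, had 1299 and 1779 CPM in these nuclei and was not particular to the members. Gad2, with 162 and 83.5 CPM in members, had 182 and 104 CPM in the Cgnl1, Etv1 and Pde11a nuclei. Low Sox6, raised Slc17a6 and low Slc6a3 were not particular to the members either. The Glra2 and Nt5e nuclei had 41.3 and 91.1 CPM of Sox6, 99.4 and 53.9 CPM of Slc17a6 and 56.0 and 188 CPM of Slc6a3. The Otx2os1 and Klhl14 nuclei had 81.4 and 25.7 CPM of Sox6, 78.0 and 74.8 CPM of Slc17a6 and 136 and 141 CPM of Slc6a3. The Sema5b and Sulf1 nuclei had 237 CPM of Ebf2 in the mutant and 57.4 CPM in the wt library, and Htr2c at 108 and 143 CPM.

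Mutant and wt members differed in some developmental regulators, transmitter genes and neuropeptide receptors, while none of the 46 axon guidance and adhesion genes measured reached 2-fold in either direction. Of 7751 genes with at least 50 UMIs over the members, 41 were at least 2-fold higher in mutant members (0.529%) and 53 at least 2-fold lower (0.684%). In other gated nuclei, where far more tags allow 16206 genes to be measured, the counts were 161 higher (0.993%) and 54 lower (0.333%). These calls rest on counts: with a filter of 200 UMIs 8 genes were higher and 9 lower. Of the 41 genes higher in mutant members 20 were also called higher in other mutant nuclei (48.8% of the 41, and 51.3% of the 39 called there that could be measured in members), and of the 53 lower ones 11 were also called lower (20.8% of the 53, and 30.6% of 36). The list of 41 holds 6 Hox, homeobox or other developmental regulators and 0 glial markers, and the list of 53 holds 0 regulators and 2 glial markers. Hoxc4, Hoxc5, Pax3 and Gata4 were not found in wt members and passed the filter of 50 UMIs through mutant members alone. They could thus only be counted as higher. Few regulators were measured at all, as given below, and the 0 among the lowered genes is no result about regulators.

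Eed is the targeted gene. It had 33.7 CPM in mutant members and 17.2 CPM in wt members, and 41.5 CPM in other mutant against 21.4 CPM in other wt nuclei. The chemistry tags the 3′ end of transcripts, and the deleted part is not given, so this level does not check the deletion. The direction of each value below therefore rests on the libraries as labelled. None of the 10 PRC2 subunit genes measured differed 2-fold between mutant and wt members.

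Onecut2, a cut-homeobox factor, had 118 CPM in mutant members (66 of 105 nuclei) and 7.46 CPM in wt members (7 of 56), 15.8-fold (8.45 to 33.3), beside 14.4-fold (13.1 to 15.8) in other gated nuclei. Hoxc4 and Hoxc5, neighbouring genes of the HoxC cluster on the plus strand of chromosome 15, had 30.6 and 25.2 CPM in mutant members and 0 UMIs in wt members. Against a floor of 3 counts over the wt members that is at least 13.7-fold and at least 11.3-fold higher. Transcripts of neighbouring Hox genes can overlap, so their tags may be split between them. Pax3, a paired-box factor of the dorsal neural tube, had 27.9 CPM in 23 mutant members and 0 UMIs in wt members, at least 12.5-fold higher. Gata4 had 25.2 CPM and 0 UMIs, at least 11.3-fold higher, and Tbx15, a T-box factor, 22.5 CPM and 1.49 CPM.

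As sums, Hox genes had 131 CPM in mutant members (292 UMIs of 31 genes, 7 of them at 0) and 0 UMIs in wt members, which allows up to 2.24 CPM, at least 58.7-fold higher. Other homeobox regulators summed to 478 CPM in mutant members against 142 CPM in wt members, 3.37-fold (2.89 to 3.96), and further developmental regulators to 296 against 94.7 CPM, 3.12-fold (2.58 to 3.81). In the other gated nuclei the same sums were 831 CPM in the mutant against 154 CPM in the wt library, 5.40-fold (5.25 to 5.55), and 634 against 61.4 CPM, 10.3-fold (9.91 to 10.8). Over all 3 lists together the mutant level was 905 CPM in members and 2006 CPM in other gated nuclei, while the wt level was 236 CPM in members and 215 CPM in the others. Few regulators reached 50 UMIs over the members: 5 of 80 homeobox genes outside Hox, 3 of 71 further regulators and 2 of 31 Hox genes, so a gene not counted was mostly not measurable at this depth.

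The Hox sum was lower in members than in the rest of the mutant library. It was 131 CPM (117 to 147) in mutant members and 540 CPM in other mutant gated nuclei, 4.12-fold lower (3.67 to 4.63). No Hox tag was found in 51 of 105 mutant members (48.6%), against 478 of 2680 other mutant nuclei (17.8%). The median was 0.327 UMIs per 10000 in members, with a highest nucleus of 9.19, against a median of 3.94 and a highest of 24.7 in the others. After thinning to 2000 UMIs, 21 of 105 mutant members (20%) carried a Hox tag, against 1354 of 2680 others (50.5%) and 2.38% of 42 oligodendrocyte-rich nuclei. Unthinned, the shares were 51.4% of mutant members and 82.2% of the others. The 10 highest members held 55.5% of the members' Hox tags.

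Hox levels followed the score in steps along the whole range of mutant nuclei. They were 668 CPM in the lower 50% of scores, 474 CPM from 20% to 50%, 382 CPM from 8% to 20%, 256 CPM in the next 4% below the members and 131 CPM in members. Nuclei with less Slc6a3 are more frequent among members. The sum is also given within bands of Slc6a3, which were chosen after seeing the data. Where Slc6a3 had no tag, the Hox sum was 57.1 CPM (40.8 to 77.8) in 50 mutant members and 319 CPM (307 to 333) in 494 other mutant nuclei. At up to 1 UMI per 10000 it was 170 CPM in members and 542 CPM in the others, above 1 and up to 3 it was 149 and 602 CPM, and above 3 it was 228.2 CPM in 6 members and 519 CPM in 614 others. The members were lower in each of the 4 bands. The part of Slc6a3 in the lower Hox sum of members was not tested. High-scoring mutant nuclei outside the gate had 76.6 CPM, and those below the members' score outside it 99.4 CPM.

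The Hox sum was below the 540 CPM of other mutant gated nuclei in each of the other groups, to differing degrees. The mutant nuclei scored on Sema5b and Sulf1, which share 15 nuclei with the members, had 60.1 CPM (46.5 to 76.5), those scored on Eya1 and Neurod6 123 CPM (109 to 138), and those on Calcr, Npsr1 and Nos1 229 CPM (210 to 249). Those scored on Otx2os1 and Klhl14 had 191 CPM, on Glra2 and Nt5e 259 CPM, and on Cgnl1, Etv1 and Pde11a 284 CPM. The nuclei scored on Ndnf and Anxa1 had 408 CPM (372 to 446). Low Hox levels were not particular to the members.

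**Figure D3:**
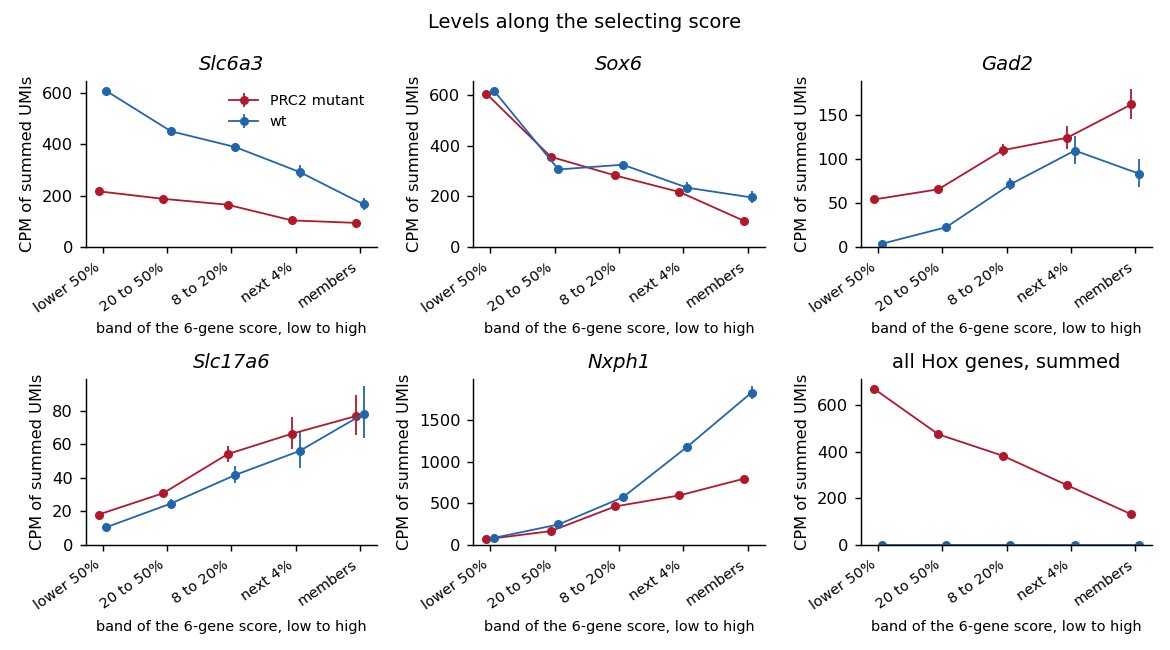
CPM of summed UMIs of Slc6a3, Sox6, Gad2, Slc17a6, Nxph1 and all Hox genes in 5 bands of the 6-gene score, low to high, in the PRC2 mutant and the wt library; bars are exact 95% intervals for counting error. The Hox sum of the mutant library steps down to 131 CPM in members, against 668 CPM in the lower 50% of scores, while the wt library stays near 0.

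Transmitter genes differed between the genotypes as well. Gad1, which makes GABA, had 83.6 CPM in mutant members (49 of 105 nuclei) and 5.97 CPM in wt members (4 of 56), 14.0-fold (6.97 to 32.9), beside 24.3-fold (20.8 to 28.7) in other gated nuclei. Slc6a5, the neuronal glycine transporter, had 37.8 CPM in 35 mutant members and 0 UMIs in wt members, at least 16.9-fold higher. Gad2 was 1.94-fold higher in mutant than in wt members (1.57 to 2.42), which was short of 2-fold with the pseudocount. Noncoding genes were higher too: 1700018A04Rik and Gm12688, annotated as long intergenic RNAs, had 43.6 and 31.0 CPM in mutant members and 0 UMIs in wt members, and Dlx6os1, an antisense RNA of the Dlx5 and Dlx6 locus, 33.3 against 6.71 CPM.

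The gate genes were closer between genotypes in members than in the rest. Their sum was 979 CPM in mutant members and 1191 CPM in wt members, 0.82-fold (0.77 to 0.88), against 0.55-fold (0.55 to 0.56) in other gated nuclei. Slc6a3 was 0.57-fold (0.47 to 0.69) in members and 0.39-fold (0.38 to 0.40) in others, Slc18a2 0.60-fold (0.54 to 0.68) and 0.39-fold (0.38 to 0.40), Th 0.72-fold (0.51 to 1.02) and 0.42-fold (0.40 to 0.43), and Ddc 1.09-fold (0.99 to 1.20) and 0.78-fold (0.77 to 0.80). None of the 4 reached 2-fold lower in members, and 3 did in other gated nuclei. The gate asks for a minimum of these genes, and members sat nearer to it: the median sum was 8.90 and 9.02 UMIs per 10000 in mutant and wt members, against 13.8 and 25.1 in the others.

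Some genes were higher in mutant members and not in other mutant nuclei. Reln, the extracellular matrix protein reelin, had 48.1 CPM in mutant members (20 of 105 nuclei) and 10.4 CPM in wt members (6 of 56), 4.61-fold (2.63 to 8.71), against 8.11 and 9.05 CPM in other mutant and wt nuclei, 0.90-fold (0.78 to 1.03). Its log2 ratio in members was 0.45 with the gate at 2 UMIs per 10000. Megf11, a membrane protein of cell spacing, had 80.0 CPM in mutant members (29 nuclei) and 23.1 CPM in wt members (10 nuclei), against 21.4 and 21.7 CPM in the others, but its log2 ratio in members was below 1 under 7 alternatives and -0.40 when the gate was raised to 10 UMIs per 10000. Lama3, a laminin chain, had 20.7 CPM in mutant and 3.73 CPM in wt members, against 42.1 and 63.7 CPM in the others, and its log2 ratio in members ran from 0.07 to 0.96 under 8 alternatives. Zfp804b, a zinc finger protein, had 291 against 138 CPM in mutant and wt members and 109 against 258 CPM in the others. Among the other genes whose ratio in members most exceeded that in the rest, Adamtsl1, 4930467D21Rik, Phldb2 and Pou3f2 were at least 2-fold lower in other mutant nuclei and did not reach 2-fold in members, and 3300002A11Rik was lower in both. Runx2 had 70.6 CPM in mutant against 28.3 CPM in wt members. The remaining genes of the 20 most raised were Spag6, Prdm6, Pcp4l1, Pde1c, Ccnd2 and St6gal1, with log2 ratios of 1.38 to 2.59; that of St6gal1 was -0.40 with the gate at 2 UMIs per 10000 and under 1 in 10 further alternatives. Pde1c fell to 0.48 with that gate, Pcp4l1 to 0.70 with a score without Adam12 and Ccnd2 to 0.64 in the top 2%. The remaining 13 of the 20, among them Onecut2, Gad1, Slc6a5, Hoxc4, Hoxc5, Pax3, Gata4 and Tbx15, were at least 2-fold higher under every alternative tried.

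Among the genes of the most negative difference were several raised less in members than in the rest. Gm29683, a long intergenic RNA, had 31.0 and 11.9 CPM in mutant and wt members, against 88.2 and 5.62 CPM in the others. Hoxc5, Hoxc4 and Pax3 had differences of the log2 ratio of -1.92, -1.82 and -1.66. Tshz2 and Adamts18 had differences of -1.45 and -1.37. The 2 sets of members and others are different nuclei of the same libraries, and no test of these differences was possible.

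Genes lower in mutant members include several of those that mark the members. Of the 53, 10 were among the genes higher in members than in other gated nuclei in both libraries. Of the 41 genes higher in mutant members, 0 were. The set higher in members held 0.82% of 13787 genes, a wider range than the 7751 measured here, and 0 of 41 lies near that share. Both comparisons use the level in wt members, so a high value there moves a gene toward both lists. The filter on UMIs over members also favours genes that are high in members. The overlap is thus a description and not independent evidence. Calcr and Npsr1 also helped to define the nuclei that shared 41 of 161 with the members. The genotypes of those shared nuclei were not counted, and their part in these values was not tested. Nxph1 had 794 CPM in mutant and 1827 CPM in wt members, 2.30-fold lower (2.16 to 2.45), against 1.46-fold lower (1.42 to 1.50) in the others. Plxdc2 was 2.70-fold lower (2.46 to 2.97) in mutant members. Calcr, the calcitonin receptor, had 19.8 CPM in 12 mutant members and 82.8 CPM in 12 wt members, 4.19-fold lower (2.93 to 6.08), and Npsr1, the neuropeptide S receptor, 38.7 against 107 CPM, 2.78-fold lower (2.11 to 3.67). Tac1, the precursor of substance P, had 5.84 CPM in 9 mutant members and 32.1 CPM in 20 wt members, 5.49-fold lower (2.90 to 11.1). The log2 ratio of Tac1 was -0.44 with the gate at 10 UMIs per 10000, that of Npsr1 -0.67 in the top 2% and that of Calcr -0.98 in gated nuclei with a Slc6a3 UMI. Of 18 neuropeptide and hormone receptors measured in this comparison, Tacr3, Lepr, Calcr and Npsr1 were lower in mutant members and none higher. Over all 7751 genes measured 0.684% were lower and 0.529% higher, so none higher among 18 is near the share over all genes.

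Other lower genes were Spag16, an axonemal protein, with 12.6 CPM in mutant and 84.3 CPM in wt members, and Glis3, a zinc finger factor, with 14.8 and 67.9 CPM. Adamts12, Slc39a12, Plce1, Crocc and Gng7 had log2 ratios of -1.68 to -1.36; Adamts12 stood at -0.34 and Gng7 at -0.94 with the gate at 10 UMIs per 10000, and Slc39a12 at -0.75 and Plce1 at -0.72 without nuclei rich in glial markers. Eif2s3y, a gene of the Y chromosome, had 7.64 CPM in 12 of 105 mutant and 28.4 CPM in 21 of 56 wt members; each pool held 1 male among 3 mice. The log2 ratio of Eif2s3y was -0.90 when scores came from 5000 UMIs a nucleus. Slc4a4 and Cdh19 also had log2 ratios below -1, and glial markers moved with them: the 8 astrocyte markers summed to 40.5 CPM in mutant members and 128 CPM in wt members, with none of the 8 at 0 in either, and a median of 0 UMIs per nucleus in both. Without nuclei rich in glial markers the log2 ratio of Slc4a4 was 0.19 and that of Cdh19 was -0.33, so these 2 are not given as lower. Of the 14 of these genes reported here, Spag16, Glis3, Plxdc2 and Crocc were at least 2-fold lower under every alternative tried.

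**Figure D4:**
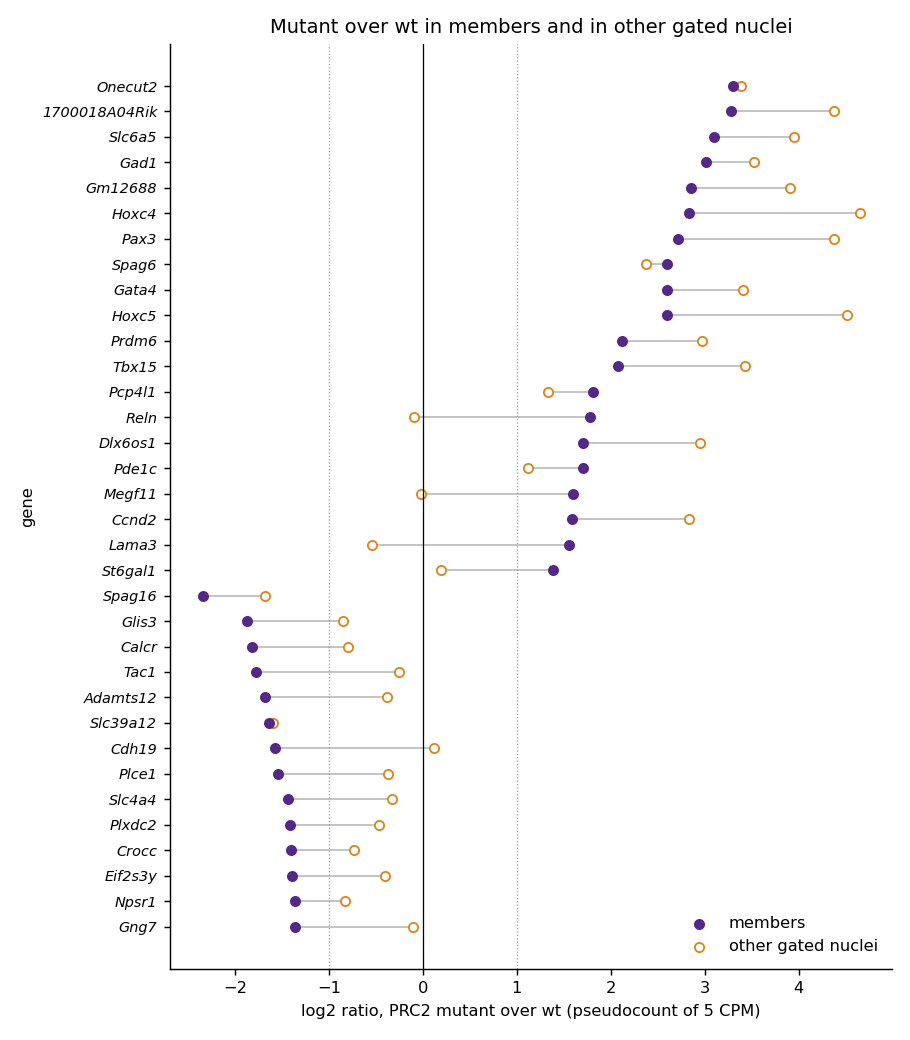
Log2 ratio of PRC2 mutant to wt, with a pseudocount of 5 CPM, for the 20 most raised and 14 of the 15 most reduced genes of members; filled points are members and open points other gated nuclei, and dotted lines mark 2-fold. Onecut2 stands at 3.30 in members and 3.39 in the others, Hoxc4 at 2.83 and 4.65, and Reln at 1.78 and -0.10.

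Of the selecting genes, none differed 2-fold between mutant and wt members. Ebf2 was 1.69-fold (1.46 to 1.96) in mutant over wt members and 1.46-fold (1.36 to 1.57) in other gated nuclei, and Htr2c was 0.82-fold (0.77 to 0.87) in members. These genes set the score, so their difference between members is not independent of the choice. A score without Ebf2 took 93 mutant and 68 wt nuclei in place of 105 and 56, of which 125 of 161 were members by the full score.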

How the data were processed

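Midbrain nuclei of adult mice were sorted by flow cytometry and turned into libraries with the 10X Chromium 3′ chemistry, per the labels' protocols. The authors deposited 1 table of UMI counts, whole numbers for 23481 genes in 5740 nuclei, with no normalization; totals were 88201326 UMIs in the mutant and 46540890 in the wt library. Cell Ranger 3.1.0 and the build mm10 appear in the submitters' processing notes; read filters are not given in the sources used here. A nucleus was assigned to a genotype by the start of its column name, with the start KO taken as the library labelled PRC2 mutant. The table does not separate the 4 lanes.

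From the counts, UMIs were summed over members and over other gated nuclei and expressed as CPM. Ratios carry a pseudocount of 5 CPM on the log2 scale; genes needed 50 UMIs over the nuclei compared, and calls 2-fold. Fold changes without the word log2 are of CPM with no pseudocount. Intervals are exact (Clopper-Pearson for shares, Poisson for levels, binomial for ratios, 95%) and cover counting error only. A gene at 0 in one class was set at a floor of 3 counts over that class. Shares of nuclei with a tag were compared after thinning to 2000 UMIs. No doublet caller was run; nuclei with at least 5 glial or vascular marker UMIs per 10000 were left out as an alternative. Symbols were matched to GENCODE M21 (23058 genes, 98.2%), and promoters to RefSeq on GRCm38.p6.

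The members, gene lists and rule for named genes were chosen with earlier results of these data known. Named outside the lists are the 25 highest and 15 lowest genes of members over other gated nuclei by mean log2 ratio, the 20 highest and 15 lowest of mutant over wt members tagged in at least 5 member nuclei, and the 10 genes at either end of the difference between members and others in the mutant over wt ratio; some genes that these rules or lists hold are not reported here. Alternatives changed the pseudocount, the filter on low counts, the share kept, the gate, the depth, the score and the weighting of nuclei. The restriction to nuclei with a Slc6a3 UMI, the removal of nuclei with a Tph2, Slc6a4 or Fev UMI, and the bands of Slc6a3 were chosen after seeing the data. The interval code was tested on simulated data. Python 3.11.15, numpy 2.4.6, scipy 1.17.1, pandas 2.3.3 and matplotlib 3.10.9 were used.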

Additional observations from a re-analysis of the deposited data

Results flagged for a closer look

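Nuclei outside the comparisons carried the same score. Of the nuclei with at least 5000 UMIs that failed the dopamine gate, 200 of 893 in the mutant library (22.4%, 19.7% to 25.3%, exact Clopper-Pearson) and 66 of 326 in the wt library (20.2%, 16.0% to 25.02%) scored at or above the lowest member, where a count of 0 would allow 0.336% and 0.920%. Their Ebf2 stood at 341 CPM in the mutant and 262 CPM in the wt library, and Nxph1 at 1086 and 1991 CPM. Gad2 had 149 and 128 CPM, and Gad1, which makes GABA as well, 71.0 and 40.6 CPM. Slc17a6 had 123 and 96.5 CPM. Nuclei outside the gate with a lower score had 1264 and 1228 CPM of Nxph1 in the mutant and wt library. Those nuclei had 144 and 143 CPM of Gad2 and 122 and 90.7 CPM of Slc17a6. Nuclei rich in glial markers were 15 of the 200 mutant and 17 of the 66 wt nuclei. The part that nuclei of other types near the gate have in the members' values was not tested.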

How the results depend on the processing

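Each genotype was 1 library, so no replicate could be left out. No paired analysis was possible because the 4 lanes of each library are not kept apart and no replicate of a genotype exists. Under the alternatives, 151 of the counts, shares and Hox ratios that answer a comparison stayed within the limits set (3/2 of a count, the counting interval otherwise) and 35 moved beyond them. The Hox ratio was below 0 in every one. The filters on UMIs cannot alter the Hox ratio or the ratios of single genes and sums, yet they are counted among the alternatives. The filter, the share kept and the gate set how many genes and nuclei enter; the cause of the other moves was not tested. With a pseudocount of 1 CPM, 196 genes were higher and 128 lower in members, 71 were higher in mutant members, and 356 were higher and 162 lower in other mutant nuclei; with 10 CPM, 28 were lower in mutant members, and 102 were higher and 31 lower in other mutant nuclei. At 20, 200 and 1 UMI as the filter, 101, 8 and 132 genes were higher and 101, 9 and 142 lower in mutant members. With nuclei weighted equally, 81 were lower in members, 74 higher in mutant members and 92 lower in them. Lower in members were 89 genes in the top 2%, 23 in the top 8%, 95 and 28 with gates of 2 and 10 UMIs per 10000, 33 with scores from 5000 UMIs and 20 among nuclei with a Slc6a3 UMI. The top 8% had 68 genes higher in mutant members, and the gate of 2 had 120 lower. Members were 1.72% of mutant and 2.54% of wt gated nuclei in the top 2%, and 7.65% and 8.73% in the top 8%. The log2 ratio of the Hox sum of mutant members to other mutant nuclei (4.12-fold lower in CPM) was -2.62 in the top 2%, -1.43 in the top 8%, -2.33 and -1.59 with gates of 2 and 10, -2.36 with a score without Adam12, and -1.80 among nuclei with a Slc6a3 UMI. A change of sign was counted only where the main ratio was at least 2-fold in either direction, and smaller main ratios were not checked for it. Of 3762 values of single genes and sums, 4 were counted: St6gal1 to -0.40 (gate of 2), Megf11 to -0.40 and Ust to -0.22 (gate of 10), and Slc4a4 to 0.19 (without nuclei rich in glial markers). Depth limits the members most, where 1 UMI is 0.450 CPM in the mutant and 0.746 CPM in the wt library.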
